A study of Mus musculus with 16 samples.

Results

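The sarcomere is the contractile unit of striated muscle, and 41 genes for its filaments, anchoring discs and assembly factors were followed in the inner ear of mice that overexpress the miR-183 cluster. The genes were given as a list by name, without heavy chains or troponins, and all 41 had a probeset with a single gene symbol, out of 19937 such genes and 34760 probesets on the array. Total RNA was hybridised to MoGene 1.0 arrays, 1 per sample, for 3 homozygous Tg1MDW/1MDW (Tg/Tg) and 3 wild type (WT) samples of cochlea at postnatal day 18 (P18), and for 5 Tg/Tg and 5 WT samples of microdissected organ of Corti (OC) at P5. Tg/Tg mice carry *Mir183*, *Mir96* and *Mir182* behind a human *GFAP* promoter, which is active in supporting cells of the OC, on both alleles of a single founder line on the FVB/NCrl background that WT mice share. The design asks what a gain of these hair cell miRNAs does to the transcripts of each tissue. Tissue and age change together between the 2 sets, and the sample names call the arrays biological replicates without saying whether an array is 1 animal or a pool, so p-values measure the spread between arrays. Array values are normalized log2 signals, a difference of 1 is a doubling, and a gene was called where its adjusted p in limma was under 0.05.

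In a sarcomere, thin filaments of actin slide past thick filaments of myosin. Thin filaments are wound with tropomyosin, ruled by nebulin, capped by tropomodulin, and anchored at the Z disc by alpha-actinin. Thick filaments carry myosin binding proteins and light chains and are held in register at the M band, and the giant protein titin spans the distance from Z disc to M band. Fast, slow and cardiac fibres use different isoforms of many of these proteins. The OC itself holds no striated muscle, whereas the middle ear muscles lie close to the cochlea.

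All 4 elements of the transgene (*Mir183*, *Mir96*, *Mir182* and *Prm1*) were higher on every Tg/Tg array than on every WT array of the same age, with log2 changes of 2.50 to 4.09 at P18 and 3.31 to 3.68 at P5. Pairs of arrays correlated at 0.99 to 0.995 at P18 and 0.973 to 0.992 at P5. Hair cell and supporting cell markers were measured in all groups, and in WT 8 of 10 and 6 of 8 of them were lower at P18 than at P5, with 1 of each list higher, against 30.2% of all probesets lower and 19.8% higher. Y-linked genes split the P5 arrays, with a mean of 3.90 to 4.06 on 4 Tg/Tg arrays and 1 WT array and 8.61 to 8.96 on 1 Tg/Tg array and 4 WT arrays. At P18 their mean was 7.65 to 7.66 on the Tg/Tg arrays and 7.22 to 7.34 on the WT arrays. These P18 values separate the genotypes and lie between the 2 P5 levels, and the cause was not tested. Bone markers split the P5 arrays as well, with a mean of 9.62 to 10.02 on replicates 1 and 2 of both genotypes and 7.99 to 8.67 on replicates 3 to 5. Results with the Y-linked mean or this split as a covariate are given where they change a call.

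In the P18 cochlea, 19 of the 41 sarcomere genes were higher in Tg/Tg and none was lower, against 0.383% of all probesets called higher and 0.0604% called lower. The list was chosen with earlier results of these data known, so comparisons with all probesets, here and below, describe but do not test it. The light chain *Myl1* had the largest change, a 10.5-fold rise, followed by the cardiac actin *Actc1* at 5.68-fold and the Z disc protein *Myoz1* at 5.65-fold. Of the 19, 11 rose at least 2-fold (0.155% of all probesets). The median change of the 41 genes was 0.54 on the log2 scale, against -0.021 for all probesets, and 36 of the 41 had a change above 0. On 29 genes all 3 Tg/Tg arrays lay above all 3 WT arrays, which was so for 14.0% of all probesets. Averaged over the 41 genes, log2 signal was 6.89 to 6.92 on the Tg/Tg arrays and 6.09 to 6.15 on the WT arrays. In RNA from a whole tissue, more cells of a type and more RNA per cell cannot be told apart.

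**Figure D1:**
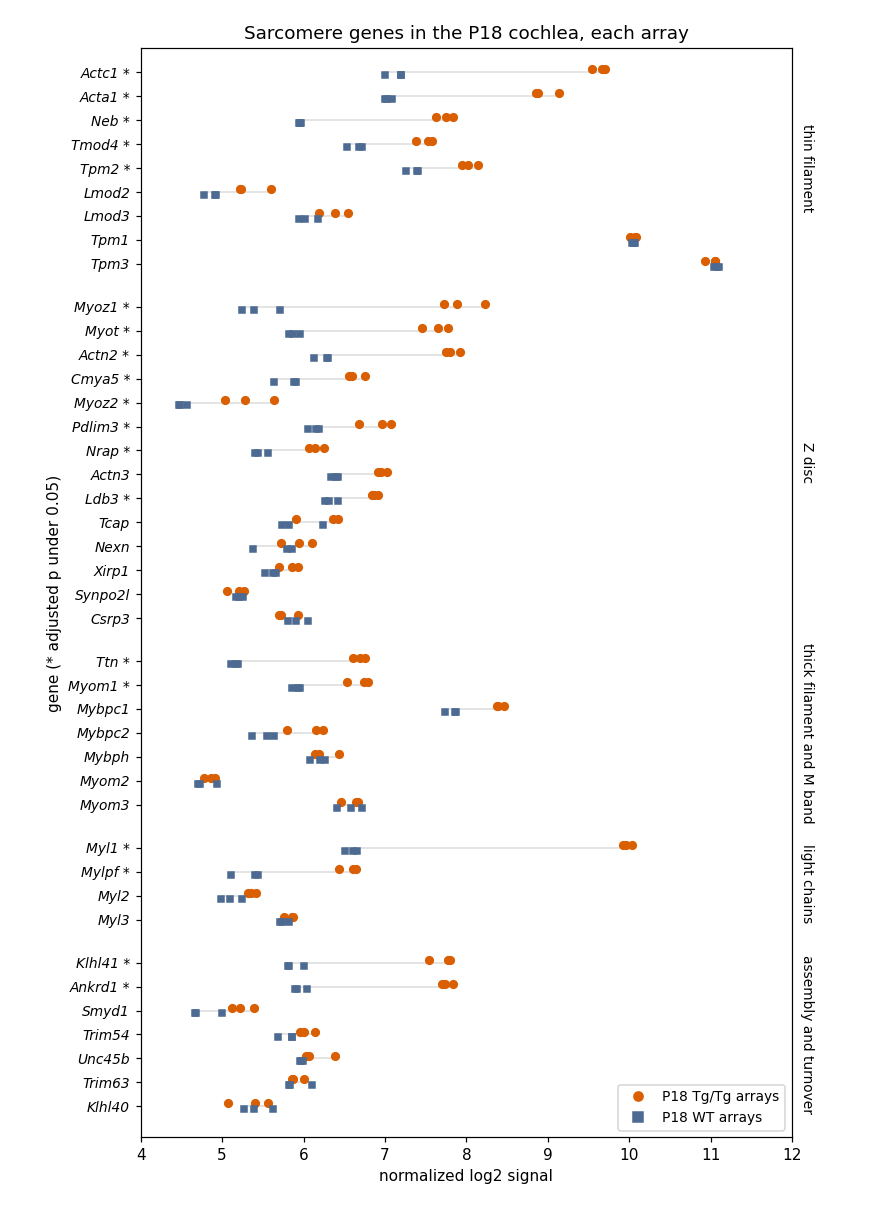
Normalized log2 signal of the 41 sarcomere genes in the P18 cochlea, grouped by role, with orange circles for the 3 Tg/Tg arrays and blue squares for the 3 WT arrays. Asterisks mark the 19 genes called higher in Tg/Tg, led by *Myl1* at 9.93 to 10.03 in Tg/Tg and 6.50 to 6.65 in WT, while *Tpm1* and *Tpm3* overlap between genotypes.

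The promoters of the 41 genes were read for 3 motifs of striated muscle genes. RefSeq windows of GRCm38.p6, from 250 bases before to 50 bases after each start site, were found for 32 of the 41 genes (37 windows, some genes having more than 1 start). The E-box, CANNTG, which factors of the MyoD family bind, was present in 34 of the 37 windows (91.9%), against 72.3% of all 32851 windows. The CArG box, the element of serum response factor, was present in 6 of the 37 (16.2%), against 1.63% of all windows. The motif of the MEF2 factors was likewise present in 6 (16.2%), against 3.19% of all. Among genes called higher at P18, E-boxes stood in 15 of 17 windows (88.2%), and in 19 of 20 windows (95%) of the other genes. CArG boxes stood in 5 of the 17 windows, of *Acta1*, *Actc1*, *Myom1* and 2 overlapping windows of *Ldb3*, and in 1 of the 20 windows of the other genes, that of *Myl3*. MEF2 motifs stood in 3 of the 17 windows (*Klhl41*, *Myoz2* and *Ttn*) and in 3 of the 20 (*Myom3* and 2 windows of *Synpo2l*). No match of 1 motif overlapped a match of another in these windows, and both strands were searched. A match is a description of the letters in the window and not evidence of binding. The windows of 4 genes that rose and differed between ages are shown, 5′ to 3′ along the gene, with the CArG box (*Actc1* and *Acta1*) or MEF2 motif (*Klhl41* and *Ttn*) in capitals. The *Actc1* window is chr2:114052826-114053125 (minus strand), and its CArG box begins 47 bases before the start site. The *Acta1* window is chr8:123894726-123895025 (minus strand), with the CArG box 73 bases before. *Klhl41* lies at chr2:69669870-69670169 (plus strand), with the motif 63 bases before the start, and *Ttn* at chr2:76982498-76982797 (minus strand), with the motif 166 bases before.
Actc1: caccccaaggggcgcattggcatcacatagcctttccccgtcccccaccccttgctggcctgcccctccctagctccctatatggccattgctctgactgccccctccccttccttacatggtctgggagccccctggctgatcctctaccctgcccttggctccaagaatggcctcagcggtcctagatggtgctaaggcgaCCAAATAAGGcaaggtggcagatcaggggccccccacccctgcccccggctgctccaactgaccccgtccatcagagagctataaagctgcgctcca
Acta1: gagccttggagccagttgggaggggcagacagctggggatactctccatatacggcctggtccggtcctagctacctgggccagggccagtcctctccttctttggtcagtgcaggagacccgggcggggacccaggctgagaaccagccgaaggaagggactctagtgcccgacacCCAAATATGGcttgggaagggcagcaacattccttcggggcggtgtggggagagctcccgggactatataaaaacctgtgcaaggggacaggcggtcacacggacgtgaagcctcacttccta
Klhl41: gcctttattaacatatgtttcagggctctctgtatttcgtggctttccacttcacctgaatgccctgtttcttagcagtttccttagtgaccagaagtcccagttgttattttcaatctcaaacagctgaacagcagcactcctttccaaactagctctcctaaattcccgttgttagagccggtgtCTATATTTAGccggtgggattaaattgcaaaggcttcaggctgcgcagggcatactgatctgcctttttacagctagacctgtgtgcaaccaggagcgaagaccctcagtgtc
Ttn: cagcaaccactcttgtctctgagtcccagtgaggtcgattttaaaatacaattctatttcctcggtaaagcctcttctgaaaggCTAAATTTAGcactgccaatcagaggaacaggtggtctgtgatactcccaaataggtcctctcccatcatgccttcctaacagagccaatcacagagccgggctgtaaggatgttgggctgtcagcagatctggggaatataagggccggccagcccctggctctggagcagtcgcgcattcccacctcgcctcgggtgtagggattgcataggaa

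Of the 9 thin filament genes, 5 rose in the P18 cochlea, both striated actins among them. *Actc1*, the alpha-actin of heart and developing muscle, had 9.67, 9.70 and 9.54 on the Tg/Tg arrays and 7.003, 7.19 and 7.20 on the WT arrays, a log2 change of 2.51 (95% interval 2.16 to 2.85, adjusted p = 2.24e-07). *Acta1*, the alpha-actin of adult skeletal muscle, had 8.88, 8.85 and 9.14 in Tg/Tg against 7.09, 7.02 and 7.004 in WT, a log2 change of 1.92 (95% interval 1.54 to 2.30, adjusted p = 1.52e-05). No Tg/Tg value of either actin came near the WT range. The 2 proteins are nearly identical, and whether their probesets share signal was not tested. *Neb* encodes nebulin, the giant protein that runs along the thin filament. Its values were 7.62, 7.76 and 7.84 in Tg/Tg and 5.95, 5.97 and 5.95 in WT, a log2 change of 1.78 (95% interval 1.62 to 1.94, adjusted p = 2.47e-09), and with SDs of 0.11 in Tg/Tg and 0.012 in WT it had the smallest adjusted p of the 41 genes. *Tmod4* encodes the tropomodulin that caps thin filament ends in skeletal muscle, and it reached 7.38, 7.58 and 7.53 in Tg/Tg against 6.54, 6.71 and 6.68 in WT, a log2 change of 0.85 (95% interval 0.60 to 1.10, adjusted p = 0.0017).

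Of the 3 tropomyosins, 1 was called. *Tpm2* (beta-tropomyosin) had 7.94, 8.14 and 8.02 in Tg/Tg and 7.39, 7.40 and 7.26 in WT, a log2 change of 0.68 (95% interval 0.45 to 0.92, adjusted p = 0.00664). *Tpm1* (alpha-tropomyosin), which is made in many cell types beside muscle, had 10.01, 10.08 and 10.08 in Tg/Tg and 10.07, 10.04 and 10.06 in WT, with overlapping groups and a log2 change of 0.0018 (95% interval -0.19 to 0.19, adjusted p = 0.998). *Tpm3*, the tropomyosin of slow fibres and of many non-muscle cells, had 10.93, 11.05 and 11.05 in Tg/Tg and 11.07, 11.04 and 11.10 in WT, a log2 change of -0.063 (95% interval -0.24 to 0.11, adjusted p = 0.919), the lowest change among thin filament genes. The other 3 probesets of *Tpm3* changed by -0.048, 0.050 and -0.11, none of them called. The intervals of *Tpm1* and *Tpm3* both end below the lower bound of *Tpm2*. The leiomodins, which nucleate actin filaments, were not called. *Lmod2*, the leiomodin of heart, averaged 5.35 ± 0.22 in Tg/Tg and 4.87 ± 0.087 in WT (SD, n = 3 each), a log2 change of 0.48 (95% interval 0.15 to 0.81, adjusted p = 0.299), and *Lmod3* averaged 6.37 ± 0.18 in Tg/Tg and 6.05 ± 0.12 in WT, a log2 change of 0.33 (95% interval -0.0065 to 0.66, adjusted p = 0.583).

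The Z disc, where thin filaments of neighbouring sarcomeres are crosslinked, contributed 8 of its 14 genes. *Myoz1* (myozenin, a calcineurin-binding protein of fast fibres) had 7.89, 8.22 and 7.73 in Tg/Tg against 5.24, 5.39 and 5.71 in WT, a log2 change of 2.50 (95% interval 2.15 to 2.84, adjusted p = 2.24e-07). Its slow and cardiac relative *Myoz2* had 5.03, 5.28 and 5.63 in Tg/Tg against 4.47, 4.49 and 4.56 in WT, a log2 change of 0.81 (95% interval 0.49 to 1.13, adjusted p = 0.022). Neither pair of groups overlapped, and the *Myoz2* signals were among the dimmest, with both P5 means and the P18 WT mean below 4.54, the lowest of the arrays' lower quartiles. *Myot* encodes myotilin, which binds alpha-actinin and filamin, and it had 7.45, 7.78 and 7.65 in Tg/Tg and 5.95, 5.87 and 5.82 in WT, a log2 change of 1.74 (95% interval 1.49 to 1.99, adjusted p = 4.30e-07). *Actn2*, the alpha-actinin of all striated fibres, had 7.75, 7.92 and 7.80 in Tg/Tg and 6.30, 6.13 and 6.29 in WT, a log2 change of 1.58 (95% interval 1.33 to 1.84, adjusted p = 1.28e-06). *Actn3*, the alpha-actinin of fast fibres, had 6.95, 7.03 and 6.91 in Tg/Tg and 6.33, 6.39 and 6.42 in WT. Its arrays did not overlap between genotypes either, but at a log2 change of 0.58 (95% interval 0.25 to 0.91, adjusted p = 0.172) it was not called. With the Y-linked mean as a covariate *Actn3* passed (adjusted p = 0.0309), as it did in a fit of the P18 arrays alone (adjusted p = 0.0192).

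The other Z disc genes that rose had smaller changes. *Cmya5* (myospryn, a partner of alpha-actinin and desmin) averaged 6.64 ± 0.11 in Tg/Tg and 5.81 ± 0.15 in WT (SD, n = 3 each), a log2 change of 0.83 (95% interval 0.55 to 1.10, adjusted p = 0.00575). *Nrap*, which encodes a nebulin-related protein that anchors actin during myofibril assembly, averaged 6.16 ± 0.093 in Tg/Tg and 5.46 ± 0.083 in WT, a log2 change of 0.69 (95% interval 0.48 to 0.91, adjusted p = 0.00261). These genes rose by less than 1 log2 unit. *Pdlim3*, an alpha-actinin-binding PDZ and LIM protein, averaged 6.91 ± 0.20 in Tg/Tg and 6.14 ± 0.069 in WT, a log2 change of 0.77 (95% interval 0.44 to 1.11, adjusted p = 0.0458). *Ldb3* (ZASP, of the same protein family) averaged 6.87 ± 0.041 in Tg/Tg and 6.33 ± 0.082 in WT, a log2 change of 0.54 (95% interval 0.34 to 0.74, adjusted p = 0.0132). Among the 6 Z disc genes that were not called, *Tcap* (telethonin, the titin cap) had a change of 0.30, *Nexn* (nexilin, an actin-binding protein) 0.24, *Xirp1* (Xin, a marker of muscle repair) 0.22 and *Synpo2l* (an actin-associated synaptopodin relative) -0.034. *Csrp3*, the muscle LIM protein, was lowest, with 5.70, 5.72 and 5.93 in Tg/Tg and 6.05, 5.91 and 5.80 in WT, a log2 change of -0.14 (95% interval -0.57 to 0.30, adjusted p = 0.935).

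Of the called genes, 4 lost their call when single arrays were left out. *Myoz2* lost its call without Tg/Tg replicate 2 (adjusted p = 0.0824) or 3 (0.137), and without WT replicate 1 (0.111), 2 (0.0968) or 3 (0.0767), and in a fit of the P18 arrays alone (0.0644). *Ldb3* lost it without Tg/Tg replicate 1 (0.0656), 2 (0.0824) or 3 (0.0546), and without WT replicate 1 (0.0783) or 2 (0.0867). Their log2 changes stayed between 0.65 and 0.95 and between 0.49 and 0.58 over all alternatives. *Pdlim3* had the weakest call, and lost it without Tg/Tg replicate 2 (0.186) or 3 (0.255), without WT replicate 1 (0.157), 2 (0.176) or 3 (0.135), with the Y-linked mean as a covariate (0.0640), with quantile normalization repeated (0.153) or each array centred on its median (0.0562), and without any 1 of 5 P5 arrays (Tg/Tg replicates 2, 4 and 5, WT replicates 3 and 4, at 0.0538 to 0.0690). *Tpm2* lost its call without Tg/Tg replicate 2 (0.0524) or WT replicate 3 (0.0514). The other 15 genes were called at P18 with each array left out in turn.

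In the thick filament and M band, 2 of 7 genes rose. *Ttn* encodes titin, the spring and ruler of the sarcomere, and had 6.60, 6.69 and 6.76 in Tg/Tg and 5.16, 5.11 and 5.20 in WT, a log2 change of 1.53 (95% interval 1.33 to 1.72, adjusted p = 8.97e-08). *Myom1* (myomesin, which crosslinks myosin and titin at the M band) had 6.53, 6.74 and 6.79 in Tg/Tg and 5.93, 5.85 and 5.95 in WT, a log2 change of 0.77 (95% interval 0.56 to 0.99, adjusted p = 0.00102). In both genes the genotypes were apart on every array. The relatives of *Myom1* were not called, with a change of 0.062 for *Myom2*, the myomesin of fast fibres, and 6.45, 6.66 and 6.65 in Tg/Tg against 6.59, 6.71 and 6.41 in WT for *Myom3*, a log2 change of 0.019 (95% interval -0.31 to 0.35, adjusted p = 0.992). *Mybpc1*, the slow form of myosin binding protein C, had 8.37, 8.46 and 8.39 in Tg/Tg and 7.86, 7.88 and 7.73 in WT, and *Mybpc2*, the fast form, had 5.79, 6.16 and 6.24 in Tg/Tg and 5.37, 5.63 and 5.55 in WT. The arrays of the 2 genotypes did not overlap for either form, and neither was called, with a log2 change of 0.59 (95% interval 0.25 to 0.92, adjusted p = 0.174) and a log2 change of 0.54 (95% interval 0.21 to 0.88, adjusted p = 0.221). *Mybpc1* passed in a fit of the P18 arrays alone (adjusted p = 0.0245) and with the split of the P5 arrays by bone markers as a covariate (0.0464). *Mybph*, the related myosin binding protein H, changed by 0.072.

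Of the 4 myosin light chains, both fast forms rose. *Myl1*, the essential light chain of fast fibres, had 9.96, 9.93 and 10.03 in Tg/Tg and 6.60, 6.50 and 6.65 in WT, a log2 change of 3.39 (95% interval 3.07 to 3.70, adjusted p = 2.72e-09), and ranked 5 by change among all 34760 probesets. *Mylpf*, the regulatory light chain of fast fibres, had 6.61, 6.43 and 6.64 in Tg/Tg and 5.11, 5.40 and 5.44 in WT, a log2 change of 1.24 (95% interval 0.96 to 1.53, adjusted p = 1.00e-04). Their slow and cardiac counterparts were not called. The essential chain *Myl3* had 5.86, 5.87 and 5.76 in Tg/Tg and 5.74, 5.71 and 5.82 in WT, a log2 change of 0.075 (95% interval -0.16 to 0.31, adjusted p = 0.934), and the regulatory chain *Myl2* had 5.41, 5.31 and 5.35 in Tg/Tg and 5.09, 5.24 and 4.98 in WT, a log2 change of 0.25 (95% interval -0.035 to 0.54, adjusted p = 0.653). Both intervals end below the lower bounds of the fast chains. The arrays of *Myl2* did not overlap between genotypes, while those of *Myl3* did.

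Over the list, 3 of 6 genes typical of fast fibres rose (*Myl1*, *Mylpf* and *Myoz1*, with *Actn3*, *Mybpc2* and *Myom2* not called), with a median change of 0.91. Of 8 genes typical of slow fibres or heart, 2 rose (*Actc1* and *Myoz2*, with *Csrp3*, *Lmod2*, *Mybpc1*, *Myl2*, *Myl3* and *Tpm3* not called), with a median of 0.37. *Ankrd1*, whose gene name in the paper includes cardiac muscle, was in neither group and rose by 1.80. The difference between these 2 groups of genes was not tested.

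**Figure D2:**
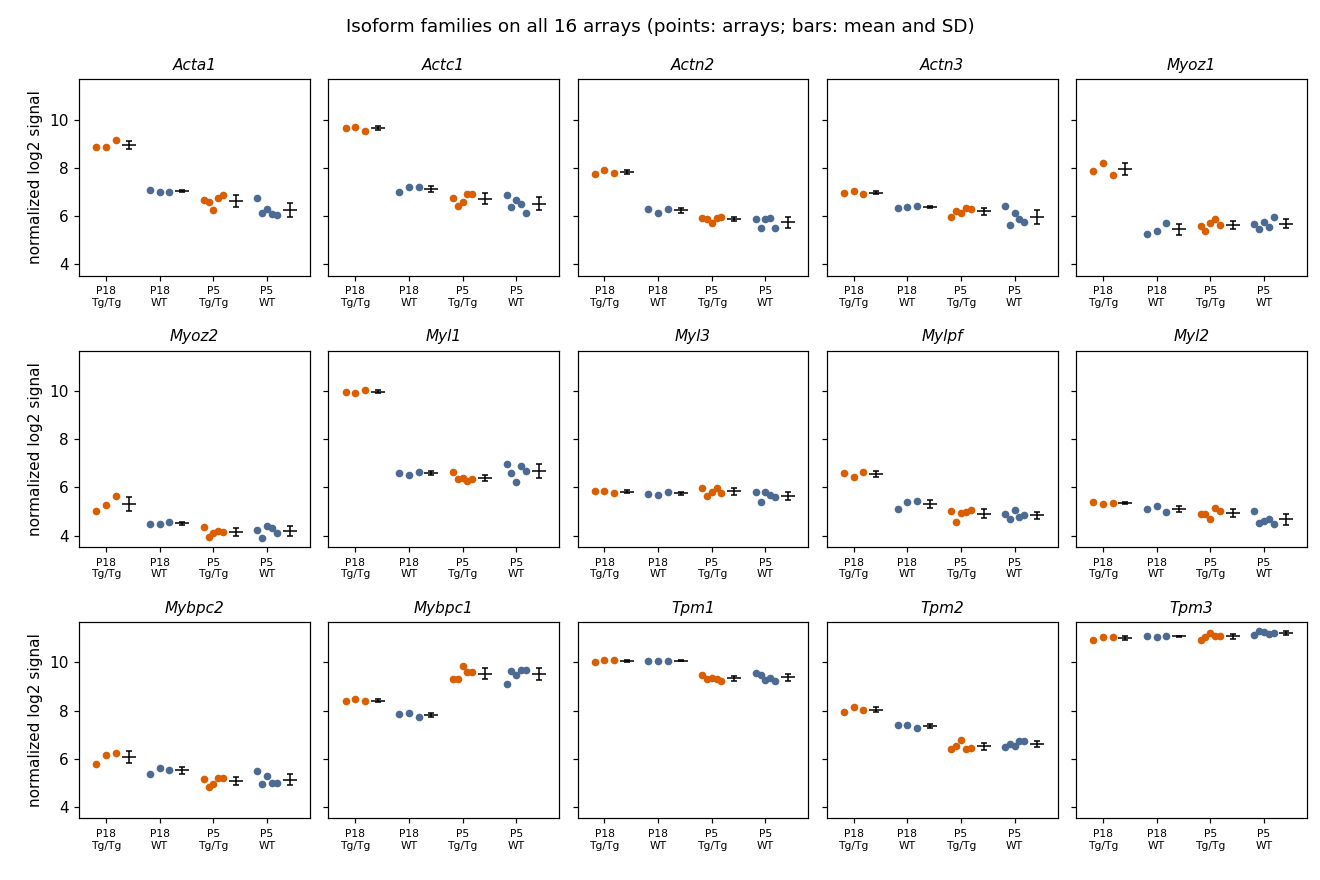
Normalized log2 signal of 15 genes from isoform families on all 16 arrays, with orange points for Tg/Tg and blue points for WT, and a black bar with whiskers for each group's mean and SD. *Myl1*, *Mylpf*, *Myoz1*, *Acta1*, *Actc1* and *Actn2* stand above all other groups in P18 Tg/Tg, as do *Tpm2*, *Actn3*, *Myoz2*, *Mybpc2* and *Myl2*. *Myl3*, *Tpm1* and *Tpm3* overlap between genotypes at P18, and *Mybpc1* is highest at P5 in both genotypes.

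Of the 7 assembly and turnover genes, 2 rose. *Klhl41*, a Kelch protein that stabilises nebulin, had 7.80, 7.77 and 7.54 in Tg/Tg and 5.83, 5.81 and 6.003 in WT, a log2 change of 1.82 (95% interval 1.56 to 2.09, adjusted p = 4.56e-07). *Ankrd1* encodes a stretch-responsive ankyrin repeat protein that binds titin, and it had 7.83, 7.70 and 7.74 in Tg/Tg and 5.91, 5.90 and 6.05 in WT, a log2 change of 1.80 (95% interval 1.44 to 2.17, adjusted p = 1.96e-05). *Smyd1*, a methyltransferase needed for myosin folding and assembly, had 5.22, 5.13 and 5.39 in Tg/Tg and 4.67, 4.99 and 4.68 in WT, without overlap, and a log2 change of 0.46 (95% interval 0.22 to 0.71, adjusted p = 0.131) that was not called. *Klhl40*, the closest relative of *Klhl41*, had 5.40, 5.07 and 5.56 in Tg/Tg and 5.26, 5.62 and 5.40 in WT, a log2 change of -0.083 (95% interval -0.48 to 0.31, adjusted p = 0.964), and the intervals of the 2 Kelch genes did not overlap. *Unc45b*, the myosin chaperone of striated muscle, changed by 0.18. *Trim54* and *Trim63*, RING finger proteins of the sarcomere that take part in protein turnover, changed by 0.23 and -0.012.

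Transcripts of other muscle proteins, which are not in the list of 41, were read beside it. Heavy chains rose for 3 of 9 genes, all of them adult fast forms: *Myh1* averaged 8.56 ± 0.13 in Tg/Tg and 5.12 ± 0.10 in WT, with a change of 3.44 (adjusted p = 2.23e-12), and *Myh2* and *Myh4* changed by 1.61 and 1.53, while the slow and cardiac forms *Myh7* and *Myh6* were not called (0.28 for *Myh7*). Troponins rose for 3 of 8 genes, again the fast forms, with changes of 2.92 for *Tnnt3*, 1.84 for *Tnnc2* and 1.31 for *Tnni2*. Of 20 genes of muscle calcium handling and energy supply, 12 rose, with the smallest adjusted p for the calcium pump *Atp2a1* (3.62), the creatine kinase *Ckm* (2.32), myoglobin (*Mb*, 2.10) and the calcium buffer *Casq1* (2.41). Of 7 myogenic regulators, 2 rose, *Mstn* (1.26) and *Myf6* (0.83), while *Myod1*, *Myog*, *Myf5*, *Mef2c* and *Pax7* were not called.

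Markers of other cell types were less uniform. Of 12 genes of smooth muscle and pericytes none was called at P18, their median change was -0.021, and their summed linear signal was 6876 to 7606 in Tg/Tg and 6588 to 6891 in WT, which overlap. Lists for hair cells (10 genes), supporting cells (8) and bone (4) had no gene called at P18. Summed signal of hair cell markers was 1876 to 1942 in Tg/Tg and 1819 to 1833 in WT, without overlap. Their mean log2 signal did overlap, at 6.87 to 6.93 in Tg/Tg and 6.89 to 6.91 in WT. Of the 10 hair cell genes, 6 had a change below 0, and the median change was -0.061. Summed signal of supporting cell markers was 7796 to 7968 in Tg/Tg and 7243 to 7299 in WT, also apart. Bone markers overlapped, at 10364 to 10867 in Tg/Tg and 10422 to 10918 in WT. Of 6 Schwann cell genes 1, *Pmp2*, was higher at P18, and their summed signal was 9811 to 10984 in Tg/Tg and 8553 to 9214 in WT. Markers of cerebellar granule neurons moved with genotype at P18: 6 of 7 were lower in Tg/Tg, led by *Gabra6*, *Neurod1* and *Cbln3*, with a mean log2 signal of the list of 6.15 to 6.17 in Tg/Tg and 7.07 to 7.14 in WT. The summed linear signal of this list was 2302 to 2417 in Tg/Tg and 2415 to 2490 in WT, which overlap. Of 5 anterior pituitary genes 1, *Gh*, was lower, and the summed signal of the list was 164.5 to 188.0 in Tg/Tg and 312 to 333 in WT. An array signal has no zero, so none of these markers can be called absent, and their part in the sarcomere results was not tested.

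**Figure D3:**
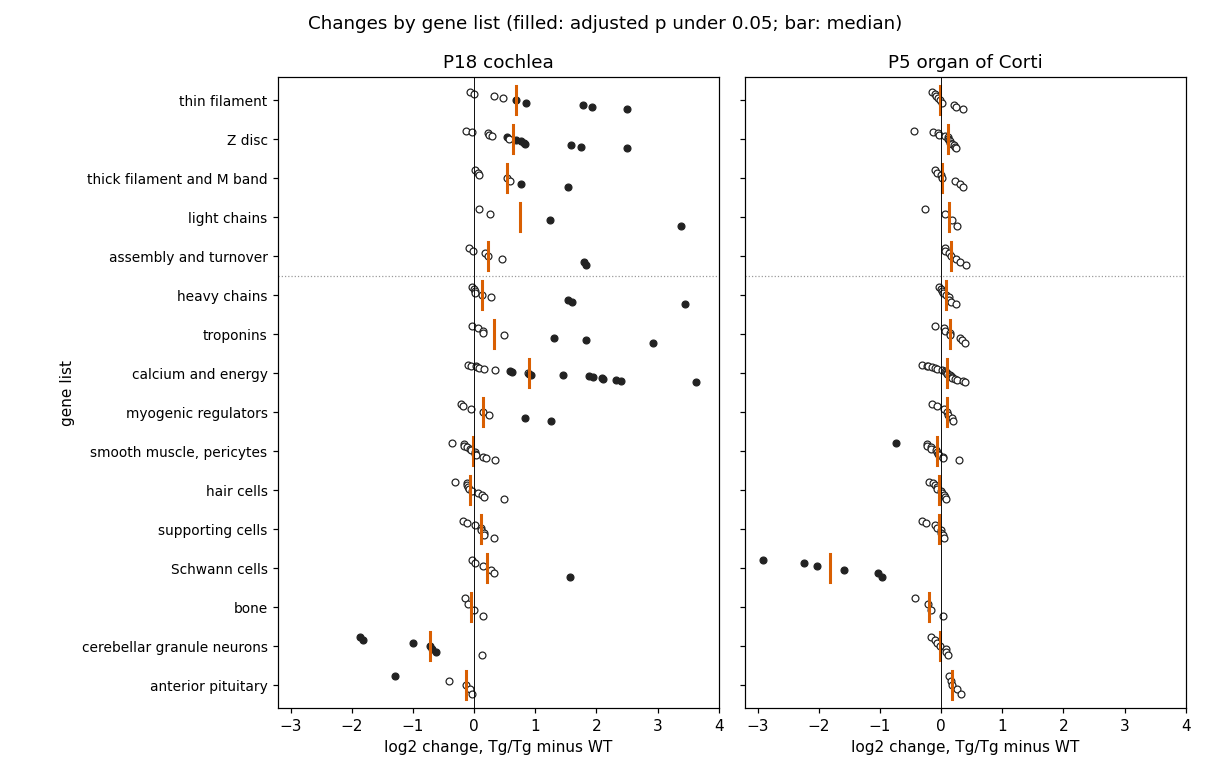
Log2 change, Tg/Tg minus WT, of each gene in the 5 role groups of the sarcomere list (above the dotted line) and in lists of other muscle genes and cell type markers, at P18 and at P5, with filled points for an adjusted p under 0.05 and orange bars for medians. At P18 the filled points of the muscle lists lie to the right and those of cerebellar granule neurons to the left, and at P5 all 6 Schwann cell genes lie to the left while no sarcomere gene is filled.

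In the P5 OC, none of the 41 sarcomere genes was called in either direction by limma, against 0.0604% of all probesets called higher and 0.549% called lower. At an unadjusted p under 0.05, 7 of the 41 were higher and 3 lower in Tg/Tg, as were 2541 and 3159 of all 34760 probesets, and the median change of the 41 genes was 0.12, against -0.014 for all probesets. On no gene did the 5 Tg/Tg arrays all lie above or all below the 5 WT arrays, which was rare among all 34760 probesets too (133 above and 447 below). The largest positive change was that of *Trim54*, with 5.98, 5.74, 5.62, 6.21 and 6.11 in Tg/Tg and 5.79, 5.33, 5.65, 5.71 and 5.18 in WT, a log2 change of 0.40 (95% interval 0.13 to 0.68, adjusted p = 0.19). *Mybph* had 6.45, 6.29, 6.11, 6.59 and 6.70 in Tg/Tg and 6.28, 5.88, 6.34, 5.98 and 5.86 in WT, a log2 change of 0.36 (95% interval 0.098 to 0.62, adjusted p = 0.209). In both genes the genotypes overlapped. The lowest change was that of *Nexn*, with 5.02, 5.19, 5.40, 4.66 and 5.03 in Tg/Tg and 5.43, 5.35, 5.84, 5.25 and 5.66 in WT, a log2 change of -0.45 (95% interval -0.76 to -0.14, adjusted p = 0.194). Other genes under an unadjusted p of 0.05 were *Acta1* (0.36), *Myom2* (0.32), *Ankrd1* (0.31), *Myl2* (0.27) and *Unc45b* (0.25) above 0, and *Myl1* (-0.27) and *Tpm3* (-0.14) below 0. The *Tpm3* value is that of its brightest probeset, and its other probesets changed by -0.088, 0.097 and 0.32 at P5, none of them called. Leaving out Tg/Tg replicate 3 turned 5 of the genes under an unadjusted p of 0.05 into calls. These were *Acta1* (adjusted p = 0.0456), *Myom2* (0.0349), *Mybph* (0.0374) and *Trim54* (0.0357) higher and *Nexn* (0.0393) lower. Leaving out WT replicate 1 turned 1 into a call, *Acta1* (0.0470). At P5 all 6 Schwann cell markers were lower in Tg/Tg, with a mean log2 signal of 7.80 to 8.50 in Tg/Tg and 9.85 to 10.02 in WT, and their part in these values was not tested.

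**Figure D4:**
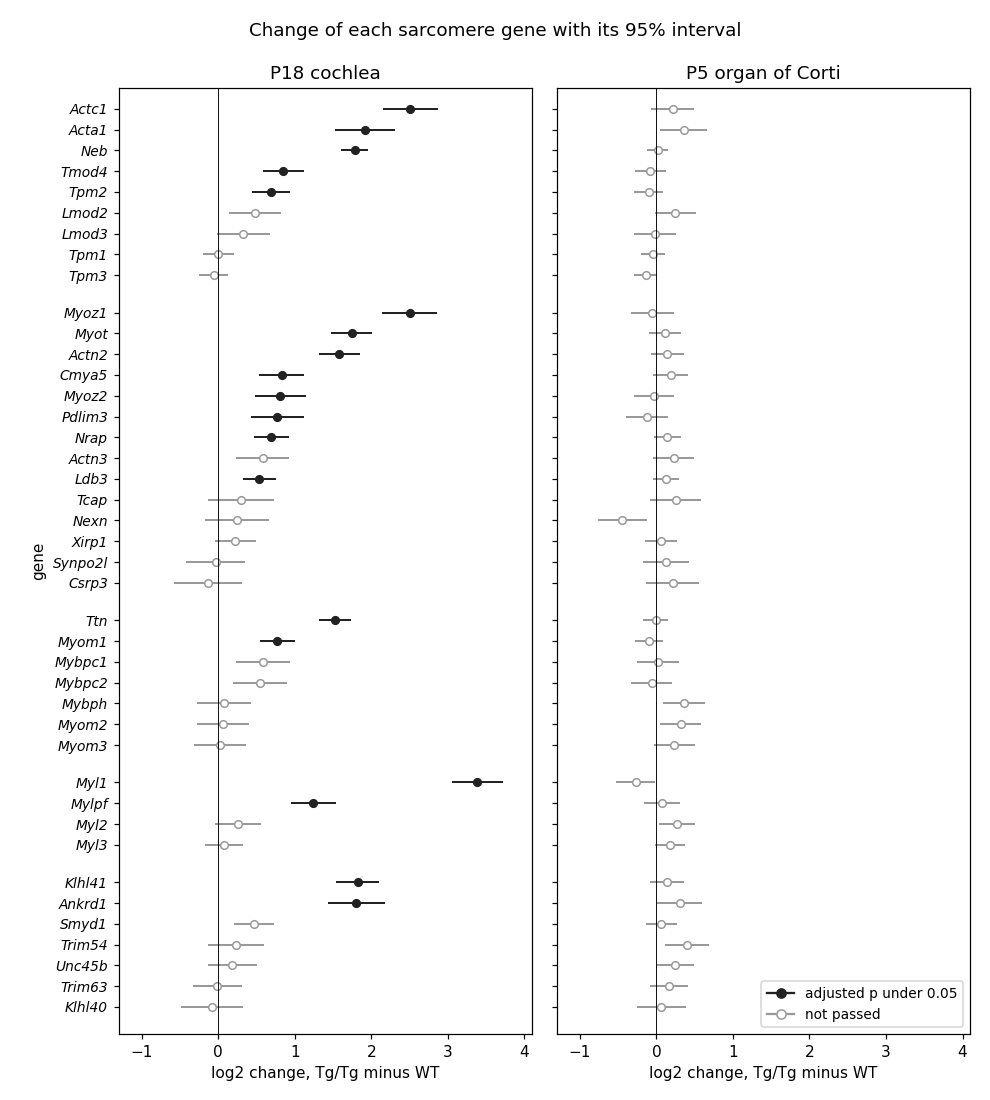
Log2 change, Tg/Tg minus WT, of each of the 41 genes with its 95% interval in the P18 cochlea and in the P5 OC, in the same order in both panels. Filled black points passed an adjusted p under 0.05, which 19 genes did at P18 and none at P5, where all changes lie between -0.45 and 0.40.

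The genotype effect differed between the ages for 14 of the 41 genes, each with a larger rise at P18, and for none in the other direction (0.541% and 0.0547% of all probesets). The fit tested this difference itself, and 11 of the 14 differed by at least 1 log2 unit. *Myl1* differed most: at P5 it had 6.63, 6.35, 6.37, 6.28 and 6.37 in Tg/Tg and 6.95, 6.60, 6.22, 6.89 and 6.68 in WT, a change of -0.27 that was opposite in sign to P18 and not called, and a difference between ages of 3.66 (95% interval 3.26 to 4.05, adjusted p = 3.75e-08). *Myoz1* at P5 had 5.58, 5.37, 5.72, 5.87 and 5.62 in Tg/Tg and 5.68, 5.47, 5.76, 5.56 and 5.96 in WT, a difference between ages of 2.55 (95% interval 2.12 to 2.99, adjusted p = 5.34e-06). The genotypes overlapped at P5 for both genes. *Actc1* had 6.75, 6.43, 6.59, 6.93 and 6.92 in P5 Tg/Tg and 6.87, 6.39, 6.66, 6.50 and 6.15 in P5 WT, a difference between ages of 2.29 (95% interval 1.86 to 2.73, adjusted p = 1.44e-05). *Acta1* at P5 had 6.66, 6.57, 6.24, 6.73 and 6.89 in Tg/Tg and 6.76, 6.12, 6.29, 6.09 and 6.04 in WT, a difference between ages of 1.56 (95% interval 1.09 to 2.04, adjusted p = 0.00196).

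*Neb* had narrow P5 groups, with 5.35, 5.28, 5.20, 5.37 and 5.30 in Tg/Tg and 5.35, 5.22, 5.30, 5.29 and 5.24 in WT, and a difference between ages of 1.77 (95% interval 1.56 to 1.97, adjusted p = 6.81e-08). *Ttn* had 5.41, 5.20, 5.13, 5.36 and 5.31 in Tg/Tg and 5.36, 5.16, 5.22, 5.39 and 5.33 in WT, a difference between ages of 1.54 (95% interval 1.29 to 1.78, adjusted p = 2.36e-06). The P5 intervals of both giant proteins lie between -0.16 and 0.14. *Klhl41* had 5.96, 5.65, 5.86, 5.99 and 5.76 in P5 Tg/Tg and 5.93, 5.43, 5.75, 5.80 and 5.63 in P5 WT, a difference between ages of 1.69 (95% interval 1.35 to 2.03, adjusted p = 2.59e-05). *Myot* had 5.76, 5.47, 5.74, 5.80 and 5.64 in P5 Tg/Tg and 5.44, 5.34, 5.69, 5.64 and 5.71 in P5 WT, a difference between ages of 1.62 (95% interval 1.31 to 1.94, adjusted p = 2.05e-05). *Actn2* had 5.92, 5.88, 5.73, 5.91 and 5.96 in P5 Tg/Tg and 5.88, 5.50, 5.87, 5.92 and 5.50 in P5 WT, a difference between ages of 1.44 (95% interval 1.12 to 1.76, adjusted p = 8.38e-05). All 3 genes had overlapping P5 groups and intervals of the P5 change that include 0. *Ankrd1* had 5.35, 4.99, 4.82, 5.55 and 5.38 in P5 Tg/Tg and 5.10, 4.60, 5.14, 4.94 and 4.78 in P5 WT, a difference between ages of 1.497 (95% interval 1.04 to 1.96, adjusted p = 0.00201). *Mylpf* had 5.04, 4.57, 4.96, 4.98 and 5.04 in P5 Tg/Tg and 4.91, 4.67, 5.05, 4.75 and 4.85 in P5 WT, a difference between ages of 1.17 (95% interval 0.81 to 1.53, adjusted p = 0.00201).

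The remaining 3 differed by less than 1 log2 unit. *Myom1* had 5.11, 5.22, 5.32, 5.46 and 5.21 in P5 Tg/Tg and 5.35, 5.47, 5.19, 5.39 and 5.42 in P5 WT, a difference between ages of 0.87 (95% interval 0.60 to 1.15, adjusted p = 0.00258). *Tmod4* had 6.56, 6.60, 6.93, 6.60 and 6.51 in P5 Tg/Tg and 6.62, 6.71, 6.59, 6.70 and 6.97 in P5 WT, a difference between ages of 0.93 (95% interval 0.61 to 1.25, adjusted p = 0.00572). Each of these had a P5 change slightly below 0. *Tpm2* had 6.40, 6.52, 6.79, 6.40 and 6.44 in P5 Tg/Tg and 6.48, 6.60, 6.51, 6.72 and 6.75 in P5 WT, a difference between ages of 0.79 (95% interval 0.49 to 1.08, adjusted p = 0.0122), and it lost this call without P18 Tg/Tg replicate 2 (adjusted p = 0.0580), without P18 WT replicate 3 (0.0536) and with the Y-linked mean as a covariate (0.0651). Of the 5 genes called at P18 without a called difference between ages, *Pdlim3* (0.90), *Myoz2* (0.84), *Nrap* (0.55), *Cmya5* (0.64) and *Ldb3* (0.41) all had a difference above 0, at adjusted p-values of 0.0578, 0.0621, 0.0682, 0.103 and 0.152, in the order named. With 1 array left out, *Pdlim3* passed without P5 Tg/Tg replicate 3 (0.0274) or P5 WT replicate 1 (0.0433) or 2 (0.0492), *Myoz2* without P18 Tg/Tg replicate 1 (0.0320) or P5 WT replicate 2 (0.0291), *Nrap* without P5 Tg/Tg replicate 4 (0.0437) or P5 WT replicate 5 (0.0394), and *Cmya5* without P5 WT replicate 4 (0.0480). With the split of the P5 arrays as a covariate, *Pdlim3* (0.0111) and *Cmya5* (0.0385) passed. Over probesets with 1 symbol only, *Pdlim3* (0.0204), *Myoz2* (0.0225), *Nrap* (0.0304) and *Cmya5* (0.0452) passed, which made 18 genes. With array weights all 5 passed, *Ldb3* at 0.0226, which made 20 genes, and with quantile normalization repeated *Nrap* passed (0.0324).

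In WT, the P18 cochlea was compared with the P5 OC to see which sarcomere genes change with age and dissection without the transgene. Here 14 of the 41 genes were higher at P18 and 2 were lower, against 19.8% and 30.2% of all probesets, so that calls were common among all probesets in this comparison. The 14 became 30 with quantile normalization repeated and 24 with each array centred on its median. This comparison and that of genotype at P18 share the P18 WT arrays. *Ankrd1* rose most, averaging 5.95 ± 0.081 at P18 (SD, n = 3) and 4.91 ± 0.23 at P5 (SD, n = 5), a log2 change of 1.04 (95% interval 0.72 to 1.37, adjusted p = 3.00e-05). *Acta1* averaged 7.04 ± 0.045 at P18 and 6.26 ± 0.30 at P5, a log2 change of 0.78 (95% interval 0.44 to 1.11, adjusted p = 6.60e-04). *Tpm2*, *Tpm1*, *Neb* and *Actc1* rose by 0.74, 0.68, 0.67 and 0.62. Thin filament genes made up 5 of the 14. The other genes that rose were *Myom1* (0.55), *Tcap* (0.51), *Actn2* (0.51), *Mylpf* (0.47), *Myl2* (0.43), *Actn3* (0.42), *Mybpc2* (0.38) and *Myot* (0.32). Calls of 4 of these genes rested on single arrays: without P18 WT replicate 1, 2 or 3 or P5 WT replicate 2, 4 or 5, at least 1 of *Myot*, *Actn3*, *Tcap* and *Mybpc2* was lost, at adjusted p-values of 0.0510 to 0.148. Several genes with a large genotype effect at P18 had a small WT change with age that was not called, such as *Myl1* (-0.083), *Myoz1* (-0.24), *Ttn* (-0.14) and *Klhl41* (0.17). Of these, *Klhl41* was called higher with quantile normalization repeated (0.42, adjusted p = 0.00598) and with each array centred on its median (0.37, adjusted p = 0.0145), and *Ttn* was called lower with array weights (-0.17, adjusted p = 0.0414). *Trim63* (0.32) was called higher with the split of the P5 arrays as a covariate (adjusted p = 0.0487). Over all 25 alternatives *Trim63* was called in 7, *Myoz2* in 7, *Myom2* in 6 and *Myom3* in 5, each time higher.

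Only 2 of the 41 genes fell with age in WT. *Lmod3*, a leiomodin of skeletal muscle, had 6.01, 6.18 and 5.95 in P18 WT and 7.66, 7.51, 7.90, 7.90 and 8.14 in P5 WT, a log2 change of -1.78 (95% interval -2.07 to -1.48, adjusted p = 3.27e-08). *Mybpc1* had 7.86, 7.88 and 7.73 in P18 WT and 9.08, 9.64, 9.47, 9.67 and 9.69 in P5 WT, a log2 change of -1.69 (95% interval -1.99 to -1.39, adjusted p = 6.93e-08). All P18 WT arrays lay below all P5 WT arrays for both genes, as they did for 10250 of all 34760 probesets. The same genes in Tg/Tg had 6.54, 6.39 and 6.19 at P18 and 7.61, 7.68, 8.12, 7.79 and 7.82 at P5 for *Lmod3*, and 8.37, 8.46 and 8.39 at P18 and 9.30, 9.29, 9.85, 9.61 and 9.59 at P5 for *Mybpc1*. At P5 their genotypes overlapped, with changes of -0.018 and 0.016. Counts in this comparison moved with scaling, since the median change of all probesets was -0.064 as deposited, 0.090 with quantile normalization repeated and 0.13 with each array centred on its median, and *Lmod3* and *Mybpc1* stayed lower under both.

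Signal limits part of the list. In P18 WT, 31 of the 41 genes lay below the median signal of the arrays (6.35), and 14 of these 31 rose in Tg/Tg, while 5 of the 10 genes at or above it did. The lower quartiles of the P5 arrays were 4.82 to 5.05. *Mylpf* averaged 4.92 in P5 Tg/Tg and 4.85 in P5 WT, and *Ankrd1* 4.91 in P5 WT, within that range. Both genes were called for a difference between ages. The values give no detection limit, so a low signal cannot be told apart from background. Without the probesets below the overall median signal 10 of the 41 genes were tested, and 6 of these were called higher at P18 (*Acta1*, *Actc1*, *Tpm2*, *Tmod4*, *Ldb3* and *Myl1*).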

How the data were processed

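Total RNA of 16 samples was measured on MoGene 1.0 arrays (P18 cochlea, 3 Tg/Tg and 3 WT; P5 OC, 5 Tg/Tg and 5 WT). The authors deposited normalized log2 signals of 34760 probesets. Their processing notes name limma, and the background correction, normalization and probe summary are not given in the sources used here, so no depth or detection limit is known and the number of arrays limits the precision. Samples were grouped by their names, which other label fields contradict in age, tissue or genotype. A fit with 4 group means (lmFit and eBayes, limma 3.58.1, R 4.3.3, 12 residual and 3.235 prior degrees of freedom) gave two-sided p-values, with Benjamini-Hochberg adjustment across every probeset within a contrast, and 95% intervals. No probeset was filtered out, and each gene was read from its brightest probeset by mean signal. The platform table gave 1 symbol for 21640 probesets and several for 1321. Summed signals add 2 to the power of each log2 value. The members and lists were chosen with earlier results of these data known. All members are named, with values of single arrays for up to 3 genes of each role group with the smallest adjusted p at P18, its lowest change, isoform pairs, and genes whose effect differed between ages. The fit was tested on simulated data. Alternatives were a replicate block, separate fits, a filter on dim probesets, probesets with 1 symbol, 2 scalings, another variance model, array weights, the mean of a gene's probesets, a Y-linked covariate, fold limits of 1.5 and 2, each array left out in turn and, added after the data were seen, the P5 split by bone markers as a covariate. Promoter windows came from RefSeq (GRCm38.p6). The 9 genes without a window were *Actn3*, *Lmod3*, *Myom2*, *Myot*, *Myoz1*, *Neb*, *Nexn*, *Tcap* and *Xirp1*. Figures used matplotlib 3.10.9 under Python 3.11.15.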

Additional observations from a re-analysis of the deposited data

Results flagged for a closer look

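On 4 of the 82 groups of 5 P5 arrays tested, 1 array stood apart from the others (Dixon's test, which flags about 1 in 20 groups by chance). *Tmod4* was 6.93 on P5 Tg/Tg replicate 3, against 6.51 to 6.60 on the other 4, and *Myl1* was 6.63 on P5 Tg/Tg replicate 1, against 6.28 to 6.37. *Mylpf* was 4.57 on P5 Tg/Tg replicate 2, against 4.96 to 5.04 on the others. *Tcap* was 5.88 on P5 WT replicate 3, against 5.23 to 5.37. Groups of 3 at P18 were not tested.

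The genotype effect at P18 minus that at P5 passed the test for 14 genes, with log2 differences of 3.66 for *Myl1*, 2.55 for *Myoz1*, 2.29 for *Actc1*, 1.77 for *Neb*, 1.69 for *Klhl41*, 1.62 for *Myot*, 1.56 for *Acta1*, 1.54 for *Ttn*, 1.497 for *Ankrd1*, 1.44 for *Actn2*, 1.17 for *Mylpf*, 0.93 for *Tmod4*, 0.87 for *Myom1* and 0.79 for *Tpm2*. Age and dissection cannot be told apart in these differences.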

How the results depend on the processing

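No gene called in a genotype comparison changed sign under any alternative. The 19 genes higher at P18 numbered 6 of 10 tested without the dimmer probesets, those below the overall median signal (fewer genes tested, filtered by the mean of all arrays). They numbered 11 with a fold limit of 2 and 15 to 19 with 1 array left out, the fewest without P18 Tg/Tg replicate 2. Array weights added *Lmod2*, *Actn3*, *Mybpc1*, *Mybpc2* and *Smyd1* at P18 (24 genes). The 14 differences between ages numbered 5 without the dimmer probesets and 13 to 16 with 1 array left out. At P5, 2 genes were called higher with array weights (*Acta1* and *Mybph*), and 0 to 4 higher and 0 to 1 lower with 1 array left out (the most without P5 Tg/Tg replicate 3). The 14 genes higher with age in WT numbered 4 without the dimmer probesets, 30 with quantile normalization repeated, 24 with each array centred on its median, 6 and 1 with fold limits of 1.5 and 2, and 11 to 17 with 1 array left out. The 2 genes lower with age became 3 with quantile normalization repeated (*Tpm3* added) and with array weights (*Ttn* added). *Smyd1* had a WT change with age of -0.025 and, with quantile normalization repeated, 0.28 (adjusted p = 0.0192); the cause was not tested. Same-numbered arrays of the 2 genotypes deviated together in part at P5, in replicates 1, 2 and 4, and not throughout (correlations of -0.22 to 0.36 at P5 and 0.00043 to 0.069 at P18; 2 of 5 and 1 of 3 correlated best with their own number), so the numbers were not taken to pair the samples. With replicate number as a block, 16 genes were called at P18 (*Tpm2*, *Ldb3* and *Pdlim3* were lost), 12 for the difference between ages (*Tpm2* and *Tmod4* were lost), none at P5, and 15 higher and 2 lower with age in WT. A separate fit for each age gives no value for comparisons between ages.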
